A study of Mus musculus with 9 samples.

Results

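The mature microRNAs (miRNAs) of the miR-365 and miR-193 hairpins were followed in mouse liver after acetaminophen (APAP), given with or without dmPGE2, a methylated analog of prostaglandin E2. The 6 members were chosen by name as arms of these hairpins, and all 6 were among the 946 rows of the deposited table. miR-365-3p drew attention because it stood near the top of the comparison of dmPGE2+APAP with Control. That comparison is therefore described here without giving a test, and the other members were taken as neighbours of miR-365-3p in the genome. The other comparisons each share a group with that comparison, so their p-values for miR-365-3p and its ratios are not free of that choice. The wild-type (WT) C57 BL6 mice were 8 weeks old. Control mice received saline, APAP mice 500 mg/kg APAP, and dmPGE2+APAP mice 300 µg/kg dmPGE2 followed 1 h later by 500 mg/kg APAP, both into the peritoneum. Each group had 3 liver libraries, collected 6 h after APAP. No group received dmPGE2 alone, so its effect was seen only on top of APAP. Nothing in the labels says that each library came from a different animal. All p-values therefore rest on the spread among libraries, which may be technical.

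A miRNA hairpin is cut by Drosha and then Dicer into a short duplex, and one arm (5p or 3p) is usually kept by Argonaute to repress messenger RNAs that pair with its seed. The mouse genome carries the miR-193 and miR-365 hairpins as a duplicated pair of neighbours. They are best known from brown fat, where the miR-193b and miR-365 pair has been tied to adipocyte differentiation, and miR-193a is known as a growth-restraining miRNA in several cancers.

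On chromosome 11, hairpin Mir193a (79711969 to 79712034) lies 14365 bases before Mir365-2 (79726400 to 79726511). Neither overlaps another annotated gene. On chromosome 16, Mir193b (13449523 to 13449601) lies 4238 bases before Mir365-1 (13453840 to 13453926), and both lie within the spans of the long noncoding RNA genes Gm32817 and Gm53058. All 4 hairpins are on the plus strand of GRCm38.p6, the same build as the mm10 named for these files. The sequences below, from RefSeq, show which rows can tell the chromosomes apart, with bases 2 to 8 (the seed) in capitals and the mouse prefix mmu, which is left out elsewhere:
mmu-miR-365-3p: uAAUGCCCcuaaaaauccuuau
mmu-miR-365-2-5p: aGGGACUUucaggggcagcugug
mmu-miR-365-1-5p: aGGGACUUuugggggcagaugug
mmu-miR-193a-3p: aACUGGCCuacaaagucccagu
mmu-miR-193b-3p: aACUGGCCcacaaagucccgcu
mmu-miR-193a-5p: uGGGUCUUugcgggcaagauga

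The 2 miR-365 hairpins give an identical 3p arm, as their full sequences show with that arm in capitals:
Mir365-2: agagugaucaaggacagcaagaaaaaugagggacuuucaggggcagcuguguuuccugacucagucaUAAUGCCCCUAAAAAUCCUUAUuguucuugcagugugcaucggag
Mir365-1: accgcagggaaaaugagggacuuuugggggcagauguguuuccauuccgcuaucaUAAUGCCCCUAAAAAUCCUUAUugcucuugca

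Reads of miR-365-3p therefore belong to both chromosomes together. The 5p arms of miR-365 share the seed GGGACUU and 20 of 23 bases, differing at C10U, A11G and C19A (positions from the 5′ end, the base of miR-365-2-5p first). The miR-193 3p arms share the seed ACUGGCC and 19 of 22 bases, differing at U9C, A20G and G21C (the base of miR-193a-3p first). Among mature mouse sequences in the reference, the seed AAUGCCC belonged to miR-365-3p alone, and the other seeds to no miRNA outside these hairpins.

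Reads counted in the 946 miRNA rows summed to between 1038799 and 10483460 per library. This sum is the total reads, or depth, meant below, and the full sequencing depth was not given in the values used here. Control libraries were the deepest as a group (7590735 to 10483460 reads, against 3523998 to 7563788 in APAP and 1038799 to 6994952 in dmPGE2+APAP). Hepatocyte miRNAs dominated, as the tissue label implies. The 6 listed rows, led by miR-122-5p and miR-148a-3p, summed to between 328761 and 525127 CPM in every library. CPM are reads per 1e6 miRNA reads of the library, scaled between libraries by the TMM method. Pancreatic miRNAs summed to at most 3.35 CPM. In bulk liver, fewer cells of a type and less RNA per cell cannot be told apart.

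miR-365-3p was the most abundant member in 9 of 9 libraries, ranking 137 of 946 rows at a mean of 32.3 CPM. Next came both arms of miR-193a, at 10.4 CPM for miR-193a-5p and 9.12 for miR-193a-3p, which did not differ beyond their spread over libraries. miR-193b-3p followed at 2.38 CPM and miR-365-2-5p at 0.753, while miR-365-1-5p was nearly absent.

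The arms that differ by chromosome were mostly those of chromosome 11. Over all libraries miR-193a-3p had 476 reads and miR-193b-3p had 122, so chromosome 11 held 79.6% of the miR-193 3p reads (exact 95% binomial interval 76.1 to 82.8, which covers counting error only). Per library that share averaged 77.4% ± 12.2 for Control (SD, n = 3), 81.0% ± 8.11 for APAP and 80.9% ± 11.2 for dmPGE2+APAP. The group means thus lay closer together than libraries of a single group, which in Control ran from 66.0% in replicate 3 to 90.3% in replicate 2.

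For miR-365, the 5p arm of chromosome 11 had 53 reads and that of chromosome 16 had 3. miR-365-2-5p thus made up 94.6% of the 5p reads (exact interval 85.1 to 98.9). Control libraries held 31 of its reads, APAP libraries 13 and dmPGE2+APAP libraries 9, which are 1.11, 0.735 and 0.705 CPM of the groups' total reads. miR-365-1-5p had 1, 2 and 0 reads, and the 0 in dmPGE2+APAP allows up to 0.235 CPM (3 reads over the group's total). Both 5p rows failed the filter on low counts and were not tested. The 5p arms held 2.56% of all miR-365 reads (exact interval 1.94 to 3.31), at 2.36% for Control, 2.78% for APAP and 3.06% for dmPGE2+APAP, and the counting intervals of the groups overlap. They tell only which 5p arms were read, since the 3p reads carry no mark of their hairpin.

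miR-365-3p had 32.7, 46.1 and 70.1 CPM in Control replicates 1, 2 and 3 (223, 339 and 761 reads). In APAP the values were 27.6, 37.1 and 14.6 CPM (192, 271 and 61 reads). In dmPGE2+APAP they were 26.3, 21.3 and 15.1 CPM (186, 25 and 74 reads). Control replicate 3 stood well above every other library, APAP replicate 2 lay among the Control values, and all dmPGE2+APAP libraries lay below all Control libraries. The 25 reads of dmPGE2+APAP replicate 2 carry a 95% counting interval of 13.8 to 31.4 CPM, within which the other libraries of its group fall.

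**Figure D1:**
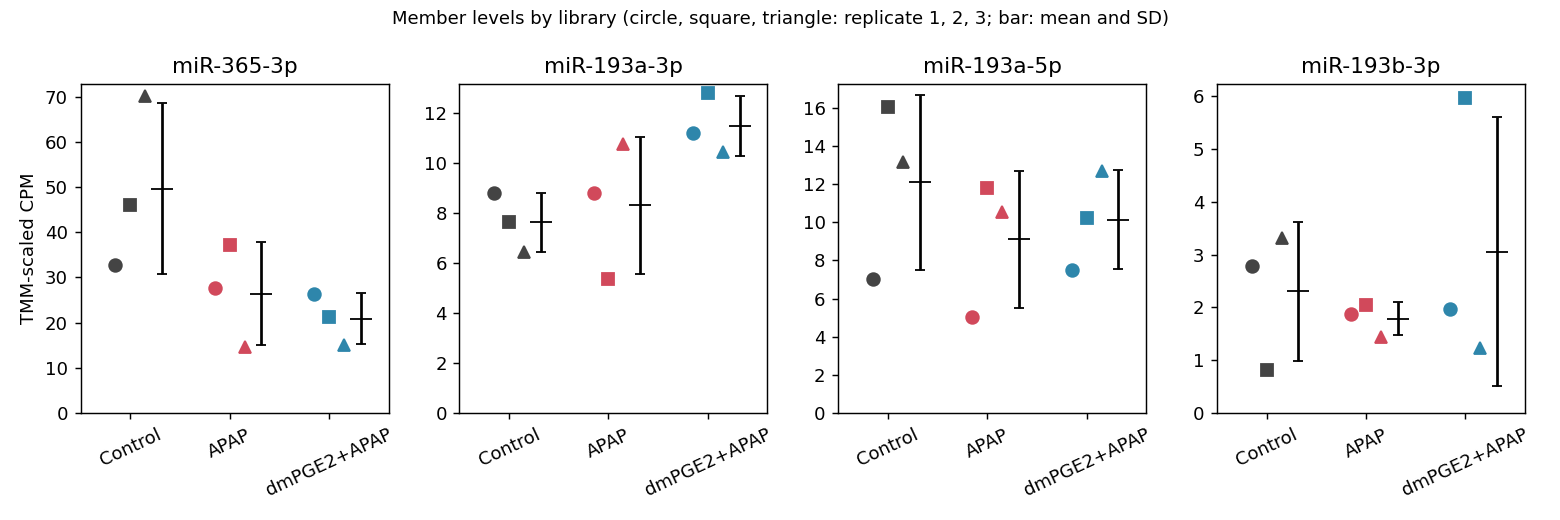
TMM-scaled CPM (vertical axis, from 0, a separate scale in each panel) of the 4 tested members in the 9 libraries, by group, with the mean and SD (n = 3) beside the points. miR-365-3p averaged 49.6 CPM in Control and 20.9 in dmPGE2+APAP, while miR-193a-3p averaged 7.62 and 11.5.

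After APAP alone miR-365-3p averaged 26.4 ± 11.3 CPM (SD, n = 3) against 49.6 ± 18.9 in Control, a log2 difference of -0.90 (SE 0.34). It did not pass, with an edgeR quasi-likelihood adjusted p of 0.351 (Benjamini-Hochberg, over all 360 miRNAs tested). Control values helped choose miR-365-3p, so this p is not free of that choice. Without Control replicate 3, the highest library, the log2 value was -0.54, without APAP replicate 3 it was -0.60, and without APAP replicate 2 it was -1.21. In this comparison edgeR called 0 of the 4 tested members where 0.833% of all tested rows were called, with 1 member, miR-365-3p, at an unadjusted p under 0.05, as 9.72% of all tested rows were. DESeq2 called 0 members and 4.39% of its rows, and gave miR-193b-3p no adjusted p.

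dmPGE2+APAP and APAP livers overlapped in miR-365-3p. The dmPGE2+APAP mean of 20.9 ± 5.59 CPM stood at a log2 value of -0.35 (SE 0.36) from APAP, with edgeR's adjusted p at 0.911. This p reuses the dmPGE2+APAP values that helped choose miR-365-3p. Of the 4 tested members 0 were called here by edgeR or DESeq2, with 0 at an unadjusted p under 0.05, while edgeR called 0.278% and DESeq2 2.23% of all rows and 6.39% were under 0.05 unadjusted. The log2 value was -0.01 without APAP replicate 2, -0.12 without dmPGE2+APAP replicate 3, and -0.59 without APAP replicate 3 or dmPGE2+APAP replicate 1.

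Against Control, the comparison on which miR-365-3p was chosen, dmPGE2+APAP livers had a log2 value of -1.25 (SE 0.36), a 2.37-fold lower level. Over all rows edgeR called 0.278% and DESeq2 0.557% here, but since these values chose miR-365-3p no call is given for the members. Without Control replicate 3 the log2 value of miR-365-3p was -0.87. Both comparisons against Control use the same 3 Control libraries, and the APAP libraries enter the other 2 comparisons, so these differences are not independent.

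miR-193a-3p, made beside miR-365-2 on chromosome 11, did not show the lower values of miR-365-3p. Control livers had 8.80, 7.61 and 6.45 CPM of it (60, 56 and 70 reads). APAP livers had 8.78, 5.34 and 10.8 CPM (61, 39 and 45 reads), and dmPGE2+APAP livers 11.2, 12.8 and 10.4 CPM (79, 15 and 51 reads). All dmPGE2+APAP libraries lay above all Control libraries. The APAP libraries ran from below the Control values up to 10.8 CPM in replicate 3, the only 1 within the dmPGE2+APAP range. The log2 value was 0.11 (SE 0.31) for APAP minus Control and 0.46 (SE 0.32) for dmPGE2+APAP minus APAP, with edgeR's adjusted p at 0.925 and 0.896. For dmPGE2+APAP minus Control it was 0.57 (SE 0.32).

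The other arm of the same hairpin, miR-193a-5p, stood at 7.04, 16.0 and 13.2 CPM in Control livers. APAP livers had 5.04, 11.8 and 10.5 CPM, and dmPGE2+APAP livers 7.49, 10.2 and 12.7 CPM. The 3 groups overlap throughout. Its log2 values were -0.42 (SE 0.37) for APAP minus Control and 0.15 (SE 0.39) for dmPGE2+APAP minus APAP, at an edgeR adjusted p of 0.719 and 0.963. For dmPGE2+APAP minus Control it stood at -0.27 (SE 0.39), and at 0.04 with the deposited TPM values.

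miR-193b-3p, from chromosome 16, had only 6 to 36 reads per library. Control livers had 2.79, 0.815 and 3.32 CPM, APAP livers 1.87, 2.05 and 1.43 CPM, and dmPGE2+APAP livers 1.98, 5.97 and 1.23 CPM, where 5.97 rests on 7 reads in the shallowest library. With such spread, the log2 values of -0.36 (SE 0.56) after APAP and 0.34 (SE 0.63) for dmPGE2+APAP minus APAP did not pass (edgeR's adjusted p 0.859 and 0.925). For dmPGE2+APAP minus Control the log2 value was -0.02 (SE 0.57), and its sign turned with library totals (0.16) and DESeq2 (0.13). The partner arm miR-193b-5p had 1 read in all libraries together.

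**Figure D2:**
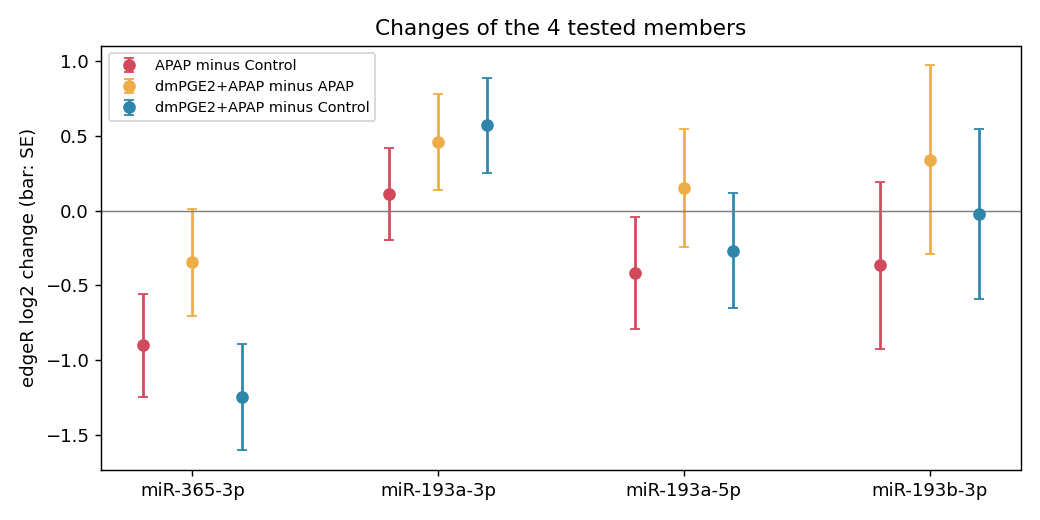
Log2 change from the edgeR fit (vertical axis) of the 4 tested members in the 3 comparisons, with bars of 1 SE. miR-365-3p lies below 0 in all 3, from -0.35 to -1.25, while miR-193a-3p lies above 0 in all 3, from 0.11 to 0.57. The change in dmPGE2+APAP minus Control, which chose miR-365-3p, is the sum of the other changes. The 0.11 of miR-193a-3p, for APAP minus Control, has an SE of 0.31 and turned sign in 2 other settings.

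Read by groups that do not overlap, 0 of the 4 tested members separated APAP from Control, where 16.7% of all tested rows did. The count was 0 for dmPGE2+APAP against APAP (13.9% of all rows). For dmPGE2+APAP against Control it was 2, miR-365-3p lower and miR-193a-3p higher (14.7% of all rows), and since that comparison chose miR-365-3p nothing is read from it. Scaling to library totals in place of TMM moved the median of all tested rows by 0.25 for APAP minus Control, by -0.02 for dmPGE2+APAP minus APAP and by 0.22 for dmPGE2+APAP minus Control. With totals the log2 values of miR-365-3p were -0.73, -0.33 and -1.05, and those of miR-193a-3p were 0.39, 0.42 and 0.81, in this order of comparisons.

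A ratio of reads within a library needs no scaling, and so compares miR-365-3p with its neighbours in the same library. It need not be free of depth, since rho with depth was 0.92 for miR-365-3p and -0.75 for miR-193a-3p (below). The relation of the ratios to depth was not tested. miR-365-3p had 3.72, 6.05 and 10.9 reads per read of miR-193a-3p in Control. In APAP the ratio was 3.15, 6.95 and 1.36, and in dmPGE2+APAP it was 2.35, 1.67 and 1.45. APAP replicate 2 was thus like Control while APAP replicate 3 had the lowest ratio of all libraries. On the log2 scale (0.5 added to each count), the ratio averaged 2.64 ± 0.78 (SD, n = 3) for Control, 1.62 ± 1.17 for APAP and 0.83 ± 0.36 for dmPGE2+APAP.

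The ratio was lower by a log2 difference of -1.01 (SE 0.81) after APAP and by -0.79 (SE 0.71) with dmPGE2 added, with p = 0.3 and p = 0.4 by exact two-sided permutation tests. With 3 libraries against 3 such a test cannot go below 0.1. Over the 12 ratio comparisons run, dmPGE2+APAP minus Control included, the Benjamini-Hochberg values were 0.48 to 0.7. Each ratio with miR-365-3p uses values that helped choose it. For dmPGE2+APAP minus Control, whose p is not given, the log2 difference of the ratio to miR-193a-3p was -1.81 (SE 0.49). That is a 3.50-fold lower ratio. The groups did not overlap, but since that comparison chose miR-365-3p nothing is read from this. Against miR-193b-3p the differences were -0.80 (SE 0.69), -0.75 (SE 0.67) and -1.55 (SE 0.88), with an exact permutation p of 0.4 for the first and the second. Against both miR-193 3p rows summed they were -0.94 (SE 0.72), -0.80 (SE 0.64) and -1.74 (SE 0.47), with an exact permutation p of 0.2 and 0.3 for the first and the second.

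The balance of the arms of miR-193a overlapped between all groups. Control livers had 0.800, 2.11 and 2.04 reads of miR-193a-5p per read of miR-193a-3p. APAP livers had 0.574, 2.21 and 0.978, and dmPGE2+APAP livers 0.671, 0.800 and 1.22. The 5p arm was ahead in 4 of 9 libraries. Log2 differences were -0.49 (SE 0.72) after APAP and -0.30 (SE 0.61) with dmPGE2 added, with an exact two-sided permutation p of 0.7 each. The second became 0.21 without APAP replicate 2.

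**Figure D3:**
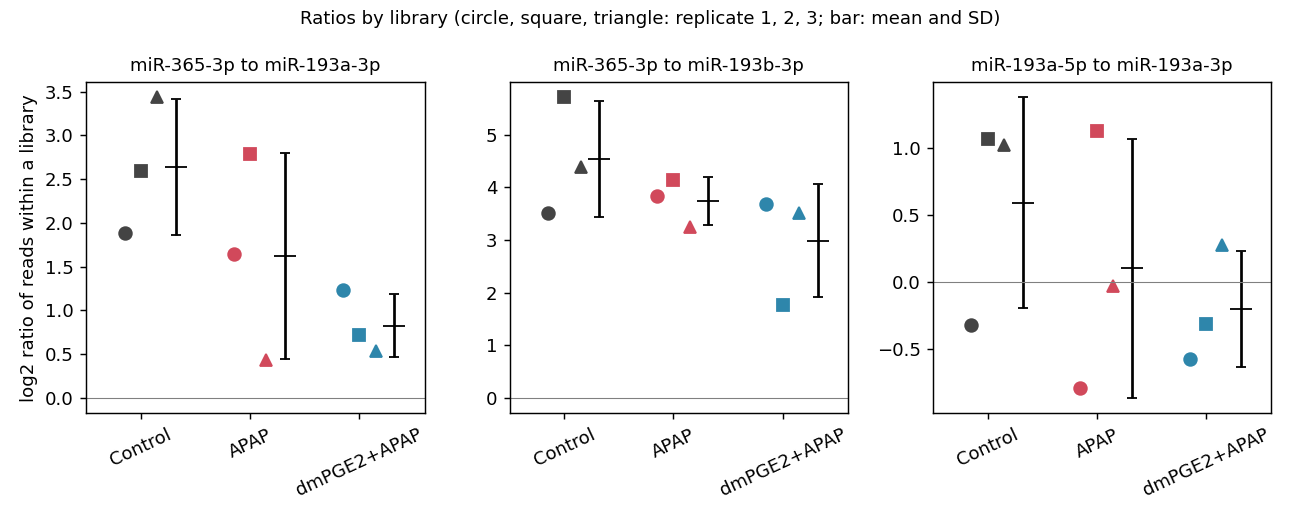
Log2 ratio of reads within each library (vertical axis, a separate scale in each panel) by group, with the mean and SD (n = 3) beside the points. The ratio of miR-365-3p to miR-193a-3p averages 2.64 in Control and 0.83 in dmPGE2+APAP, with APAP libraries spread from 0.43 to 2.78, and the ratio of the miR-193a arms overlaps between all groups.

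Depth, counted as miRNA reads, moved with these levels. The 3 Control libraries, where miR-365-3p was highest on average, were deeper than every library of the other groups, and the order of miR-365-3p followed the order of depth within Control and within APAP, though not within dmPGE2+APAP. Across 9 libraries log2 CPM of miR-365-3p and log2 total reads had a Pearson r of 0.64 and a Spearman rho of 0.92. Correlations across libraries are given here as a description, with no p, since they include the Control and dmPGE2+APAP values that chose miR-365-3p and were computed, for the 4 tested members, after the levels had been seen. Without APAP replicate 3 and dmPGE2+APAP replicate 2, the libraries farthest from the median depth, r was 0.98.

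For miR-193a-3p the values with depth were negative, at r = -0.71 and rho = -0.75, with r = -0.59 without the same libraries. miR-193a-5p had r = 0.05 and rho = 0.38, and miR-193b-3p had r = -0.53 and rho = 0.03. Without the same libraries r was 0.32 for miR-193a-5p, and for miR-193b-3p it turned to 0.26. Scaled by library totals, rho with depth was 0.87 for miR-365-3p and -0.83 for miR-193a-3p. Of all 360 tested rows, 1.94% had a rho with depth at least as high as miR-365-3p, which is counted among them.

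With log2 total reads as a covariate in the edgeR fit, the log2 values of miR-365-3p were -0.72 (SE 0.35) for APAP minus Control, -0.15 (SE 0.38) for dmPGE2+APAP minus APAP and -0.87 (SE 0.46) for dmPGE2+APAP minus Control. Those of miR-193a-3p were -0.05 (SE 0.31), 0.36 (SE 0.30) and 0.31 (SE 0.35). This fit was added after seeing the data, and none of these passed in it in the comparisons tested (edgeR adjusted p between 0.41 and 0.979). Since depth differed between the groups, depth and treatment are only partly separable in 9 libraries.

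**Figure D4:**
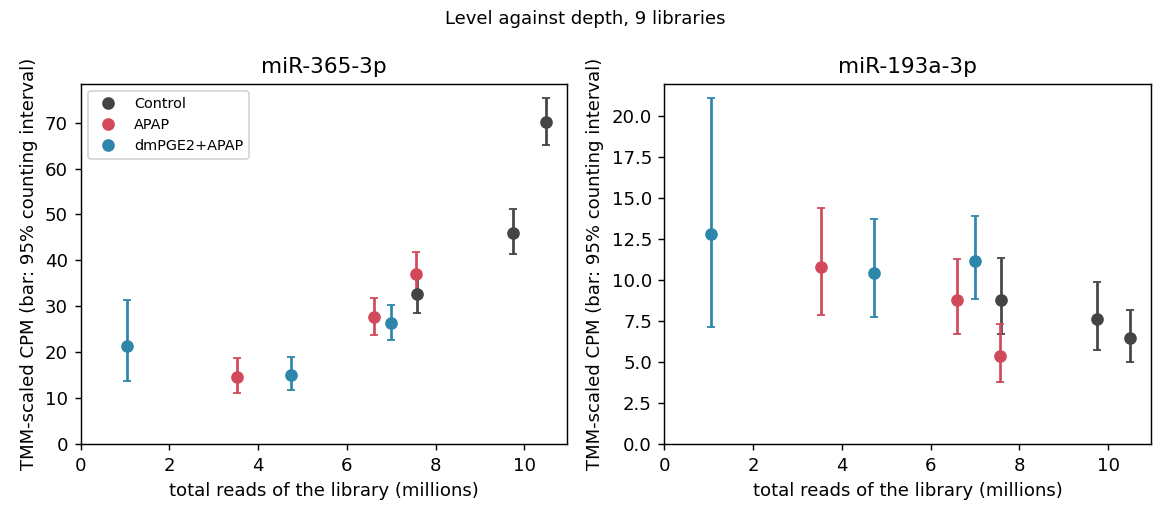
TMM-scaled CPM (vertical axis, from 0) against the total miRNA reads of each library (horizontal axis, in units of 1e6), for miR-365-3p and miR-193a-3p, coloured by group, with 95% counting intervals. miR-365-3p is highest, at 70.1 CPM, in the deepest library, and miR-193a-3p is highest, at 12.8 CPM, in the shallowest.

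Of the 3 neighbours compared with miR-365-3p on log2 CPM over the 9 libraries, again as a description, miR-193a-3p had r = -0.75 and rho = -0.80. Without Control replicate 3 and APAP replicate 3 r was -0.69, and taken as deviations from group means, which removes the treatments, it was -0.74. Scaled by library totals r was -0.68, and -0.45 as deviations from group means. With miR-193a-5p r was 0.22 and rho 0.35, and with miR-193b-3p r was 0.13 and rho 0.22. Without the same pair of libraries these r values were 0.12 and -0.27. All these levels share the library and its depth.

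Among the 205 rows compared with a mean of at least 10 CPM, the pattern most like that of miR-365-3p over the 9 libraries was that of miR-30d-5p (r = 0.95), a member of the miR-30 family. Next were miR-30a-5p (0.92), miR-361-3p (0.90), miR-10a-5p (0.87) and miR-30c-5p (0.87). Of the other members only miR-193a-5p reached 10 CPM, and it ranked 84, while the rest were not ranked. The 5 rows most like miR-365-3p were picked for their likeness, so the values describe them and are not tested. For dmPGE2+APAP minus Control their log2 values were closer to 0 than that of miR-365-3p, at -0.57, -0.60, -0.51, -0.50 and -0.51. Their rho with depth lay between 0.78 and 0.95, and between 0.38 and 0.82 when scaled by library totals.

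Brown fat and adipocyte miRNAs, the setting in which the chromosome 16 pair is best known, were described as a list of 12, all in the table and 11 tested. With edgeR and with DESeq2, 0 of them were called in any comparison, and at an unadjusted p under 0.05 there were 0, 0 and 2 (miR-27b-3p and miR-455-5p) for APAP minus Control, dmPGE2+APAP minus APAP and dmPGE2+APAP minus Control. Over all tested rows 9.72%, 6.39% and 10.6% were under that unadjusted value. Values below 0 were found in 7, 4 and 9 of the 11, with medians of -0.17, 0.05 and -0.09, beside -0.05, 0.00 and -0.03 over all tested rows. The most abundant were miR-27b-3p, at 8779 ± 1177 CPM for Control, 10041 ± 1260 for APAP and 12259 ± 3543 for dmPGE2+APAP (SD, n = 3), and miR-378a-3p, at 6787 ± 1410, 7456 ± 438 and 7692 ± 412. miR-30c-5p, named above for its likeness, and miR-133a-3p, also on the muscle list, are among the 11.

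Of miRNAs that mark other cells, the 4 of the muscle list, led by miR-1a-3p and miR-133a-3p, summed to 482 to 2700 CPM for Control, 315 to 903 for APAP and 341 to 721 for dmPGE2+APAP. The highest sum of that list was in a Control library, with 3 of 4 log2 values below 0 in each comparison and 0 called by edgeR or DESeq2. At an unadjusted p under 0.05 it had 1, 0 and 1 of its 4 members, against the 9.72%, 6.39% and 10.6% of all rows. Of the 6 hepatocyte rows, 5, 2 and 6 had log2 values below 0 in the same order of comparisons, beside 199, 180 and 194 of all 360 tested rows. The 4 red-cell rows, led by miR-451a and miR-486a-5p, summed to 431 to 543 CPM for Control, 731 to 1398 for APAP and 352 to 379 for dmPGE2+APAP. In dmPGE2+APAP minus APAP edgeR called 1 of them, miR-451a, lower (log2 -1.44, adjusted p 0.00993), where it called 0.278% of all rows. In the other comparisons edgeR called 0 of them. DESeq2 called 2, 3 and 0 in the 3 comparisons, where it called 4.39%, 2.23% and 0.557% of all its rows. At an unadjusted edgeR p under 0.05 there were 4, 4 and 0 of the 4 red-cell rows, beside 9.72%, 6.39% and 10.6% of all rows. The 3 myeloid rows, led by miR-142a-5p and miR-223-3p, summed to 118 to 228, 168 to 309 and 147 to 233 CPM. Of these edgeR called 0 and DESeq2 called 1 (miR-223-3p, after APAP, where DESeq2 called 4.39% of its rows). In the order of comparisons above 1, 1 and 0 were at an unadjusted p under 0.05, beside the same 9.72%, 6.39% and 10.6% of all rows. Sums overlapped between all groups for the 4 stellate and mesenchymal rows, led by miR-143-3p and miR-145a-5p (24261 to 41385 CPM overall), and for the endothelial pair miR-126a-3p and miR-126a-5p (7437 to 10174 CPM overall). No marker in the table was at 0 in every library, and the part of other cells in the levels of miR-365-3p was not tested.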

How the data were processed

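Small RNA libraries were made from 1 µg of total liver RNA, per the labels' protocols, and per the submitters' processing notes Bowtie and the mm10 build were used. Its version, how reads were assigned to miRNAs, and which annotation and strand setting applied, were not given in the sources used here. Deposited values, per the file headers, are read counts per mature miRNA and TPM. The deposited TPM are each row's share of the library total, without a length term, and served for 1 alternative. Control columns carry the prefix BC, which the labels do not use; the other prefixes matched the other groups, which left Control for it. Value columns left unused numbered 0.

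Counts of all 9 libraries were fitted in R 4.3.3 with edgeR 4.0.16 (TMM scaling, filterByExpr with minimum count 10 and minimum total 15, robust quasi-likelihood test, 3 group means). Of 946 rows 360 were tested, with Benjamini-Hochberg adjustment over all of them and a threshold of 0.05. The SE of a log2 change was derived from the F statistic. Log2 CPM used a prior count of 2. Ratios were compared by exact permutation. Alternatives used DESeq2 1.42.0 and limma 3.58.1. On 10 simulated sets for APAP minus Control (mean 351 rows tested) the test found 67% of the rows changed 2-fold and 97.7% of those changed 4-fold. Of its calls 0 had a wrong direction and 1.89% were false. Those sets covered rows of all abundances and tied no level to depth. They also changed most of the tested rows, while edgeR called 0.833% of the real rows for APAP minus Control. The shares found and false therefore do not carry over to these data, least of all to members with few reads, such as miR-193b-3p. Counting intervals cover counting error only, since PCR copies are not independent molecules.

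The members and lists were chosen with earlier results of these data known. Named miRNAs were the members, other arms of their hairpins, rows sharing a seed, the 5 rows of at least 10 CPM most correlated with miR-365-3p, and the 2 most abundant rows of each list (hepatocyte, red cell, myeloid, muscle, pancreas, stellate and mesenchymal, endothelial, brown fat and adipocyte). Others named were chosen after their values were seen. RefSeq sequences were found for 7 of the 7 arms looked up.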

Additional observations from a re-analysis of the deposited data

How the results depend on the processing

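Across 17 settings beside the one reported, the count of members called stayed at 0 for APAP minus Control and for dmPGE2+APAP minus APAP. For dmPGE2+APAP minus Control no count is given, since that comparison chose miR-365-3p. Over all rows edgeR called 3, 1 and 1 in the order APAP minus Control, dmPGE2+APAP minus APAP and dmPGE2+APAP minus Control, and DESeq2 13, 8 and 2. Deviations from group means correlated at -0.25 to 0.17 between same-numbered libraries, above 0.1 in 2 of 9 pairs. With 3 libraries per group these values cannot decide whether the replicate numbers pair the samples. The log2 values of miR-365-3p with the replicate block were -0.96, -0.30 and -1.27. In that fit 0 members were called in APAP minus Control and in dmPGE2+APAP minus APAP. miR-365-3p stayed below 0 in every setting, and with a library left out it ranged from -1.21 to -0.54 (APAP minus Control), -0.59 to -0.01 (dmPGE2+APAP minus APAP) and -1.48 to -0.87 (dmPGE2+APAP minus Control). Signs turned, without any call, for miR-193a-3p after APAP (leave-one-out -0.10 to 0.37, depth covariate, chosen after seeing the data, -0.048), miR-193b-3p (leave-one-out -0.74 to 0.041, -0.10 to 0.78 and -0.46 to 0.43 in the same order; for the last also library totals 0.16, only these 2 groups 0.020, DESeq2 0.13 and limma on TPM 0.36) and miR-193a-5p (leave-one-out -0.15 to 0.41 for dmPGE2+APAP minus APAP and -0.47 to 0.024 for dmPGE2+APAP minus Control, limma on TPM 0.037). The miR-193a arm ratio ranged from -0.75 to 0.21 for dmPGE2+APAP minus APAP with a library left out. The cause was not tested. Ratios of miR-365-3p to its neighbours kept their sign in every setting run. Depth limits miR-193b-3p and the 5p arms of miR-365 most, with few reads each.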
